A study of Fukomys damarensis with 47 samples.

Results

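Marrow cells from the pooled long bones, enriched for mesenchymal stromal cells (bMSCs), were cultured from female Damaraland mole-rats (Fukomys damarensis) and were treated with 10 nM estradiol for 24 hr before RNA-Seq. The queens against nonbreeders comparison under estradiol holds the 10 long bone estradiol libraries, of 47 libraries in the series, and its members were taken by the labels for breeding status, bone and treatment. The 4 queens, females paired with an unrelated male and labelled as breeders, were LAF007, MAF006, NOF009 and WAF014. The 6 nonbreeders were 5 helpers, DVF008, G1F022, NOF007, WAF011 and WEF002, and 1 solitaire, G4F020. The animals were between 1004 and 1231 days old; all were females, and the labels name no agent other than estradiol or vehicle that differed between cultures. A vehicle library from the same bones was sequenced for each of the 10 animals and serves as the comparison without estradiol. The question of the contrast is which genes differ between queen and nonbreeder bone cells when estradiol is in the medium, and whether the queen effect differs from that under vehicle.

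Bone is remodelled by osteoblasts, which arise from the mesenchymal stromal lineage and lay down collagen and mineral, and by osteoclasts, which arise from the monocyte lineage and dissolve both. Osteoclasts acidify a sealed space with a vacuolar proton pump and release lysosomal proteases into it, among them cathepsin K. Estradiol acts through nuclear receptors and is known to restrain osteoclasts. Marrow cultures enriched by attachment to plastic can keep macrophages and other leukocytes beside the stromal cells.

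Total counts per library were between 5329563 and 14740985, with a median of 8435656.5 in queens and 7598425 in nonbreeders. MAF006 had the lowest total and stood apart from the rest: its Pearson correlations of log2 CPM (reads of a gene relative to the library's total, scaled by trimmed mean of M-values factors) with the other 9 libraries had a median of 0.755, where those of the other libraries had medians between 0.845 and 0.918. Collagen and matrix genes were present in every library, at a summed level of 1450 CPM in MAF006 and between 5263 and 13910 CPM in the other 9. COL1A1, a type I collagen gene, was at 36.9 CPM in MAF006, 222 in NOF009, 445 in WAF014 and 1450 in LAF007, and between 142 and 1199 in nonbreeders. The level in MAF006 was below that of all others, and the remaining queens lay within the range of the nonbreeders. Leukocyte markers were present in every library too. The summed level of 8 pan-leukocyte markers was 3492 CPM in MAF006, 1899 in NOF009, 357 in WAF014 and 259 in LAF007, and ran from 169 to 1236 in nonbreeders. MAF006 and NOF009 lay above all nonbreeders, and LAF007 and WAF014 lay below 3 of them. At 0 counts in at least 1 library were PARVG among the pan-leukocyte markers, GPR65 among the myeloid and CD27 among the lymphoid markers. In bulk cultures, fewer cells of a type and less RNA per cell cannot be told apart.

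**Figure D1:**
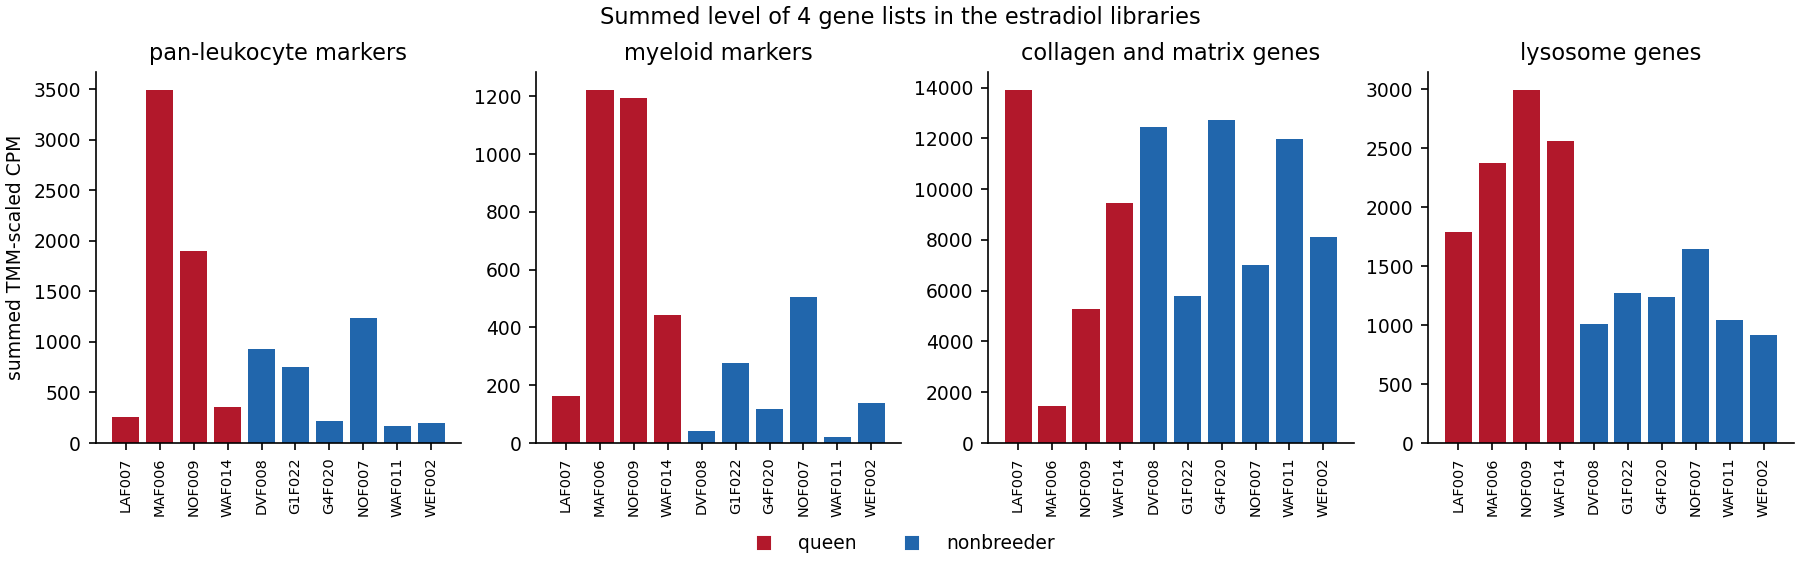
Bars give the summed CPM, scaled by trimmed mean of M-values factors, of 4 gene lists in each estradiol library (queens red, nonbreeders blue; linear axes from 0). The lysosome sum separates the groups, while the leukocyte sums are high in MAF006 and NOF009 and the collagen sum is lowest in MAF006.

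With edgeR's quasi-likelihood test over 11047 genes, 1 gene rose in queens at a false discovery rate (FDR) of 10% (0.00905% of the genes tested) and 4 at an FDR of 20% (0.0362%). No gene was lower in queens at either FDR. DESeq2's Wald test called 53 genes at an FDR of 10%, all higher in queens, with these 4, CTSV, H2AFJ, CCL8 and SIPA1 among them, and edgeR's test called none without the solitaire G4F020. At an unadjusted p under 0.05, 414 genes were higher in queens (3.75%) and 63 were lower (0.57%). These 477 genes were fewer than the 552 that uniform p-values would give. The 4 genes have no symbol among those used here, and each was higher in all 4 queens than in all 6 nonbreeders, as were 53 genes in all (0.48%). All queens were below all nonbreeders for 24 genes (0.217%). With only 4 and 6 libraries, random labels would separate about 0.48% of genes in each direction. The share above is near that and the share below, 0.217%, is under it. A lack of overlap, here and for the genes below, is therefore no call on its own.

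ENSFDAG00000015151, the gene past an FDR of 10%, was at 7.38 CPM in MAF006, 11.9 in LAF007, 15.1 in NOF009 and 36.6 in WAF014. In nonbreeders it was between 0.668 in G4F020 and 1.82 in G1F022, or 5 to 12 reads per library. Every queen was above every nonbreeder, and WAF014 was highest. Mean log2 CPM came to 3.92 ± 0.95 (SD, n = 4) for the queens, and to 0.46 ± 0.42 (SD, n = 6) for the nonbreeders. The log2 fold change was 3.90 (SE, standard error of the log2 fold change, 0.47, edgeR adjusted p = 0.0592). Its adjusted p ran from 0.0289 without MAF006 to 0.303 without WAF011, and the call was lost without NOF009 and without any 1 of the 6 nonbreeders. The log2 fold change stayed between 3.27 and 4.16 in these fits. With voom on the 26 long bone libraries the gene was not called at an FDR of 10%.

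ENSFDAG00000015372, which the study lists under both superoxide anion generation and bone resorption, was at 45.5 CPM in WAF014, 79.4 in NOF009, 95.0 in MAF006 and 109 in LAF007. Nonbreeders lay between 1.97 CPM in WEF002 and 16.3 in NOF007. The groups did not overlap, and the log2 fold change was 3.46 (SE 0.56, edgeR adjusted p = 0.186). The pan-leukocyte sums of the libraries are given above, and their part in this difference was not tested.

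ENSFDAG00000015713 was between 6.89 and 11.9 CPM in queens and between 1.60 and 3.21 CPM in nonbreeders, with a log2 fold change of 2.01 (SE 0.30, edgeR adjusted p = 0.174). The other gene past an FDR of 20%, ENSFDAG00000010218, is named because its value passed. It was between 11.2 and 17.6 CPM in queens and between 2.40 and 4.70 in nonbreeders, with a log2 fold change of 1.88 (SE 0.29, edgeR adjusted p = 0.174). Neither gene showed overlap between the groups. The highest queen for both was a different animal, WAF014 for the first and NOF009 for the second.

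Among genes with a symbol, CTSV had the smallest p. It encodes cathepsin V, a lysosomal cysteine protease close to cathepsin L. Its level was 421 CPM in MAF006, 515 in NOF009, 533 in LAF007 and 1098 in WAF014, and between 126 in DVF008 and 262 in NOF007 among nonbreeders. All queens were above all nonbreeders, with a log2 fold change of 1.71 (SE 0.29, edgeR adjusted p = 0.204), which missed both thresholds. CTSZ, which encodes another lysosomal cathepsin, was at 374 CPM in LAF007, 590 in WAF014, 889 in MAF006 and 1388 in NOF009, against 163 to 541 in nonbreeders. LAF007 lay within the range of nonbreeders, and the log2 fold change was 1.51 (SE 0.44, edgeR adjusted p = 0.905).

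CCL8, a chemokine that attracts monocytes, was at 44.7 CPM in LAF007, 71.4 in NOF009, 109 in MAF006 and 146 in WAF014. Nonbreeders ranged from 0.123 CPM, a single read, in DVF008 to 17.7 in NOF007. The groups did not overlap, but the spread among nonbreeders was wide, and the log2 fold change was 4.21 (SE 0.98, edgeR adjusted p = 0.659). H2AFJ, a histone H2A variant, also had all queens above all nonbreeders, at 4.14 to 16.7 against 0.563 to 3.03 CPM, with a log2 fold change of 2.24 (SE 0.48, edgeR adjusted p = 0.555). SIPA1, a GTPase activator for Rap proteins, had a log2 fold change of 1.56, and its lowest queen, WAF014 at 4.14 CPM, was just under G1F022 at 4.24. The other genes of smallest p in this direction were ADAM8 (2.50), STX3 (1.56), CHD7 (1.25), SH3BP5 (0.89) and SHTN1 (1.82), each with its log2 fold change and an adjusted p of 0.983. CHD7, a chromatin remodeller, was at 17.3 CPM in WAF014 and 21.6 in LAF007, within the 15.3 to 22.5 of nonbreeders, and at 46.1 in MAF006 and 99.7 in NOF009; without NOF009 its log2 fold change was 0.55.

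**Figure D2:**
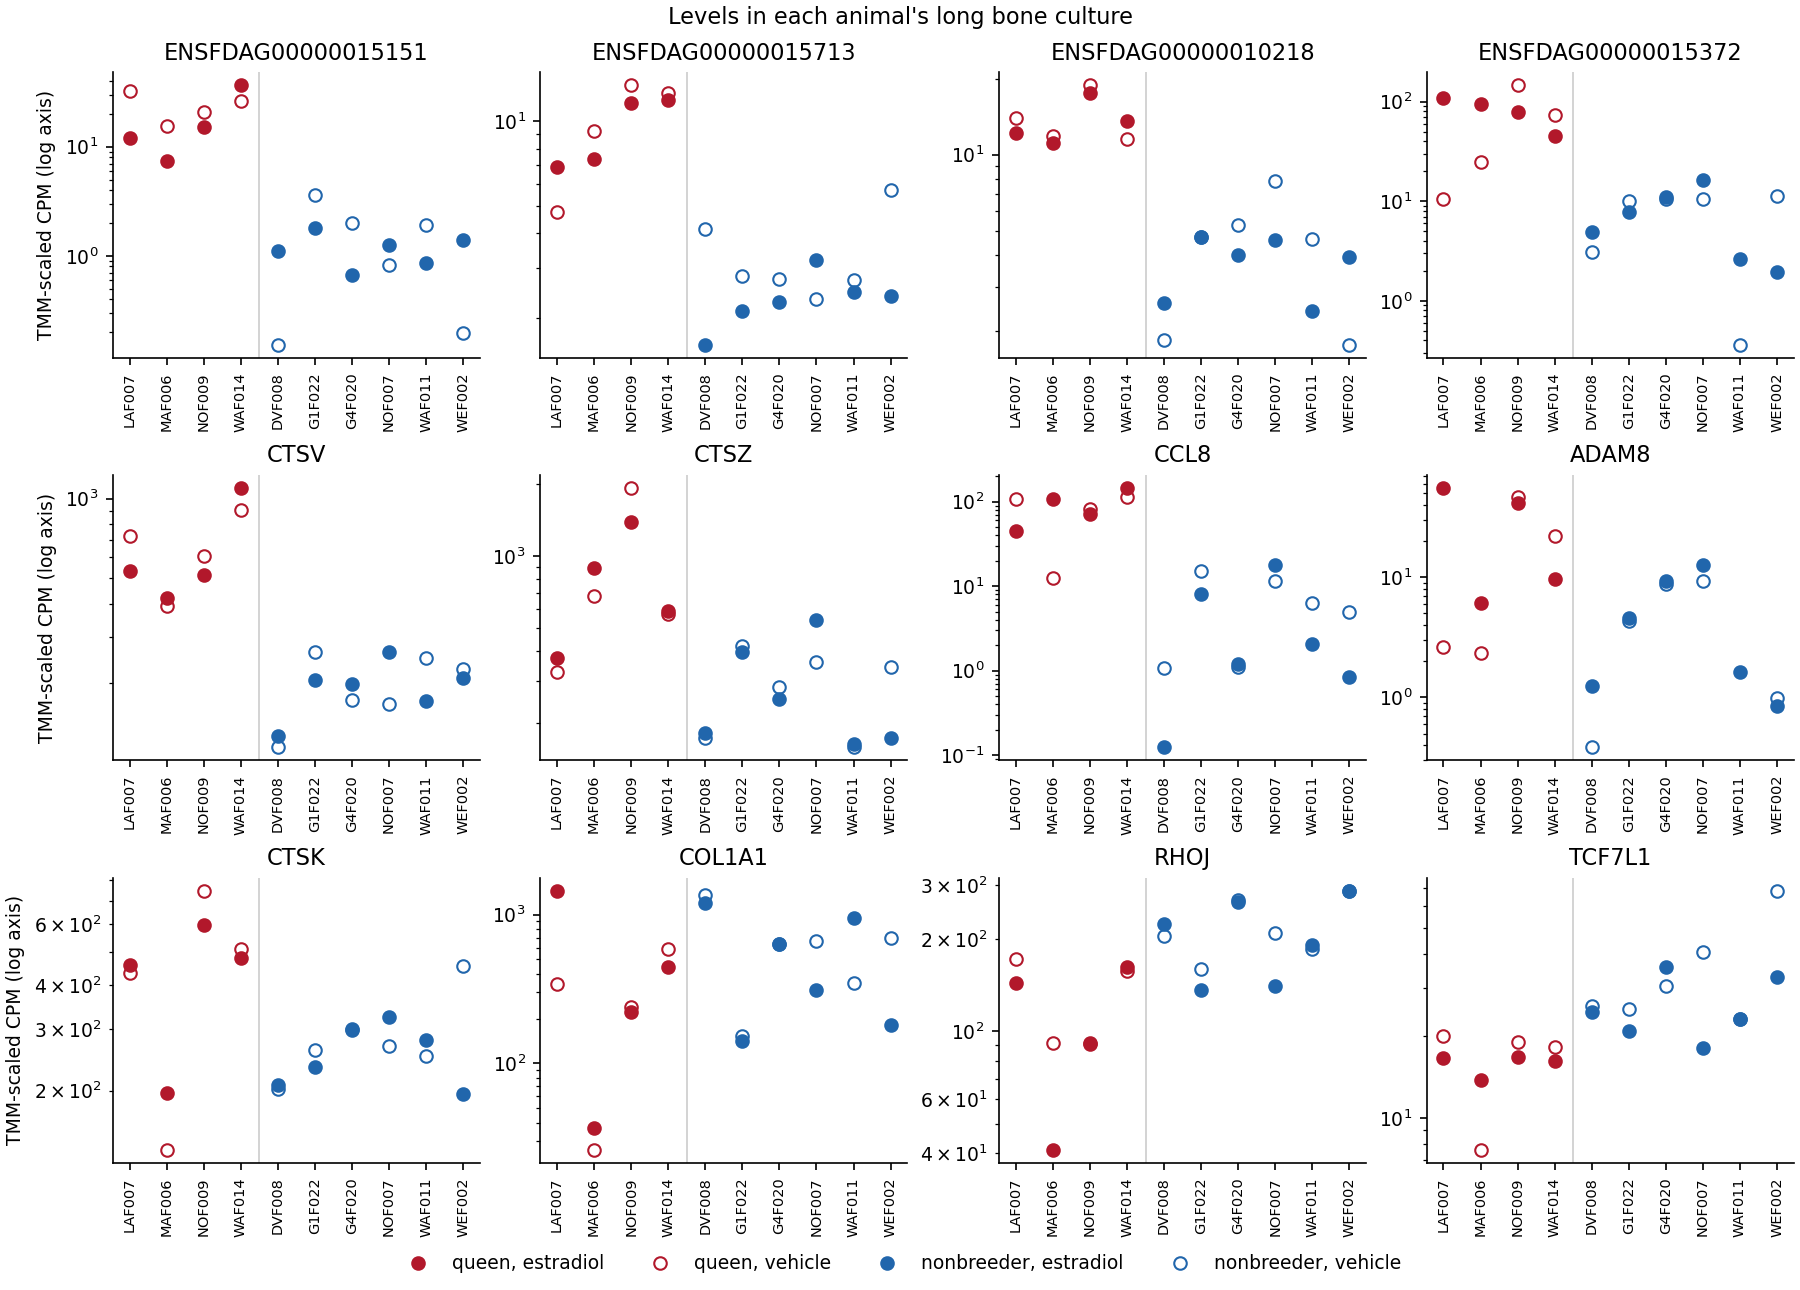
Each point is the level of a gene in 1 library, as CPM scaled by trimmed mean of M-values factors on a log axis, for queens (red) and nonbreeders (blue) under estradiol (filled) and vehicle (open). The upper row and CTSV and CCL8 show every filled queen above every filled nonbreeder; the vehicle library of WAF011 held 0 reads of ADAM8 and has no circle there.

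In the other direction, the 10 genes with a symbol of smallest p had log2 fold changes between -1.58 and -0.58 and adjusted p of 0.983. TCF7L1, a transcription factor of Wnt signalling, was at 13.8 to 16.7 CPM in queens and 18.0 to 35.9 in nonbreeders, with a log2 fold change of -0.71 (SE 0.25). PDGFRL, a protein related to platelet-derived growth factor receptors, was at 28.1 to 53.9 CPM in queens and 58.0 to 90.1 in nonbreeders (log2 fold change -0.58, SE 0.23). For these 2 genes, all queens were below all nonbreeders. RHOJ, a small GTPase of endothelial cells, was at 41.0 CPM in MAF006, 91.6 in NOF009, 143 in LAF007 and 163 in WAF014, and between 136 and 288 in nonbreeders, so that 2 queens overlapped with them. Also of this group were MBL2 (log2 fold change -0.96), a mannose-binding lectin, IL13RA2 (-0.94), a decoy receptor for interleukin 13, MAP3K7 (-0.81), a kinase downstream of TGF-beta receptors, GLIPR2 (-0.68), TGFBR3 (-0.65), a TGF-beta co-receptor, FHL1 (-0.59), a LIM domain protein, and OSR2 (-1.58), a transcription factor of limb development. With colony as a block, 7 of the 10 moved nearer to 0 by over 1.5 times, to -0.30 for OSR2, -0.34 for IL13RA2, -0.30 for MAP3K7, -0.24 for GLIPR2, -0.21 for PDGFRL, -0.31 for TCF7L1 and -0.42 for RHOJ, and voom gave -0.18 for OSR2, which was -1.04 without G4F020. Of genes without a symbol, ENSFDAG00000009366 (log2 fold change -1.84, SE 0.43, edgeR adjusted p = 0.659) and ENSFDAG00000020389 (-0.59, SE 0.19, adjusted p = 0.983) had the smallest p, and all queens were below all nonbreeders for both. The first rests on 2 to 5 reads in each queen.

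Of the enzymes of bone resorption, 5 were tested, 4 had a log2 fold change above 0, where 49.6% of all genes did, and 2 had an unadjusted p under 0.05, both higher in queens. Over all genes, 3.75% had such a p and were higher in queens, and 0.57% had one and were lower. These shares are the background for every list below. The median log2 fold change was 0.17, against -0.0030 over all genes, and 0.37 without DVF008. CTSK, the collagen-degrading cathepsin of osteoclasts, was at 197 CPM in MAF006, 457 in LAF007, 481 in WAF014 and 597 in NOF009, and between 195 in WEF002 and 324 in NOF007 among nonbreeders. Above all nonbreeders were 3 queens, while MAF006 was beside the lowest. The log2 fold change was 0.76 (SE 0.29, edgeR adjusted p = 0.983, unadjusted p = 0.0229). ADAM8, a membrane metalloprotease of leukocytes and osteoclasts, was at 6.07 CPM in MAF006, 9.66 in WAF014, 41.6 in NOF009 and 55.2 in LAF007, and between 0.844 and 12.5 in nonbreeders, so that 2 queens overlapped with the nonbreeders. Its log2 fold change of 2.50 had an SE of 0.84 (edgeR adjusted p = 0.983). The proton pump subunits ATP6V0A1 and ATP6V1D had log2 fold changes of -0.07 (SE 0.60) and 0.17 (SE 0.18), and CYBC1, which is needed to assemble the NADPH oxidase, had 0.09 (SE 0.57).

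Lysosome genes were mostly higher in queens in value. Of 13 tested, 12 had a log2 fold change above 0, where 49.6% of all genes did. An unadjusted p under 0.05 was found for 3, CTSV, CTSZ and CTNS, against 3.75% of all genes, and none passed an FDR of 20%. The median was 0.55. CTNS, the lysosomal cystine exporter, had a log2 fold change of 0.90 (SE 0.36) and LAMTOR4, a subunit of the lysosomal Ragulator complex, 0.63 (SE 0.31). The summed level of the list was 1786 CPM in LAF007, 2375 in MAF006, 2562 in WAF014 and 2994 in NOF009. Nonbreeders ranged from 913 in WEF002 to 1643 in NOF007. All queens were therefore above all nonbreeders, as they were under vehicle, at 1785 to 3793 against 956 to 1512 CPM. Without MAF006, the library that stood apart, the list's median was 0.59, and with natal colony as a block it was 0.27.

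Myeloid markers, a list of genes of monocytes, macrophages and their kin, had a median log2 fold change of 1.36. It was above 0 for 12 of 13 tested genes, where 49.6% of all genes were. None passed an FDR of 20%, and 5 had an unadjusted p under 0.05: CCL8, ARL11 (2.48), NRROS (1.52), NOD2 (1.36) and CTSS (2.37), each with its log2 fold change. CTSS, the cathepsin of antigen-presenting cells, was at 63.7 CPM in LAF007, 157 in WAF014, 569 in NOF009 and 571 in MAF006, and between 4.03 and 205 in nonbreeders, where NOF007 was highest. The summed level of the list was 164 CPM in LAF007, 442 in WAF014, 1193 in NOF009 and 1222 in MAF006. Among nonbreeders it ran from 21.8 to 505, so that LAF007 and WAF014 were below NOF007. These queens were above the nonbreeders up to 1006 days old, DVF008 at 40.6 and WAF011 at 21.8. The older queens, MAF006 and NOF009, were above the older nonbreeders, at 119 to 505. The pan-leukocyte sum did not separate so, as DVF008, at 932 CPM, was above LAF007 and WAF014. The 8 pan-leukocyte markers all had a log2 fold change above 0, with a median of 1.01 that was 0.45 without MAF006. PARVG (3.52, SE 1.49), an adhesion protein that was at 0.35, 0.487, 21.4 and 115 CPM in LAF007, WAF014, NOF009 and MAF006 and at 0 to 9.20 in nonbreeders, and CORO1A (1.64, SE 0.74), a leukocyte coronin, had an unadjusted p under 0.05. LAPTM5, a lysosomal membrane protein of blood cells, was at 178 CPM in LAF007, 251 in WAF014, 1202 in NOF009 and 1949 in MAF006, and between 66.8 and 692 in nonbreeders. Of 4 lymphoid markers tested, IL7R, the interleukin 7 receptor (1.75, SE 0.77), had an unadjusted p under 0.05, and the median was 0.36, or -0.09 without MAF006. How far the amount of leukocyte RNA contributes to the genes higher in queens was not tested.

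Interferon and NF-kB genes had a log2 fold change above 0 for 9 of 11, with a median of 0.87 that was 0.26 without MAF006 and 0.31 with colony as a block, and 3 with an unadjusted p under 0.05. NFKBIA, the inhibitor that NF-kB itself induces, was at 18.4 CPM in LAF007, 22.2 in WAF014, 170 in MAF006 and 382 in NOF009, and between 12.9 and 69.0 in nonbreeders. The complement gene C3 (2.67, SE 1.04) and the immunoproteasome gene PSMB10 (1.32, SE 0.58) were the others. For NFKBIA the pair of leukocyte-rich queens, MAF006 and NOF009, was above all nonbreeders, and the other pair was within their range. MAF006 and NOF009 were also the older queens.

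The study's own terms were chosen by the study on these samples among others, so they are not independent evidence of a direction. Of 5 genes under bone resorption, all had a log2 fold change above 0, 4 had an unadjusted p under 0.05 and ENSFDAG00000015372 passed an FDR of 20%, with a median of 2.50. All 4 superoxide genes, 8 leukocyte chemotaxis genes and 8 cytokine secretion genes were above 0 too, with medians of 2.52, 2.03 and 2.06. In the cytokine term, ENSFDAG00000011628 was at 904 CPM in MAF006, 1453 in LAF007, 3829 in NOF009 and 5210 in WAF014, and between 53.7 and 785 in nonbreeders (log2 fold change 3.13, SE 0.81, edgeR adjusted p = 0.752). Its groups did not overlap, nor did those of ENSFDAG00000018795 under chemotaxis (2.90, SE 0.83).

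**Figure D3:**
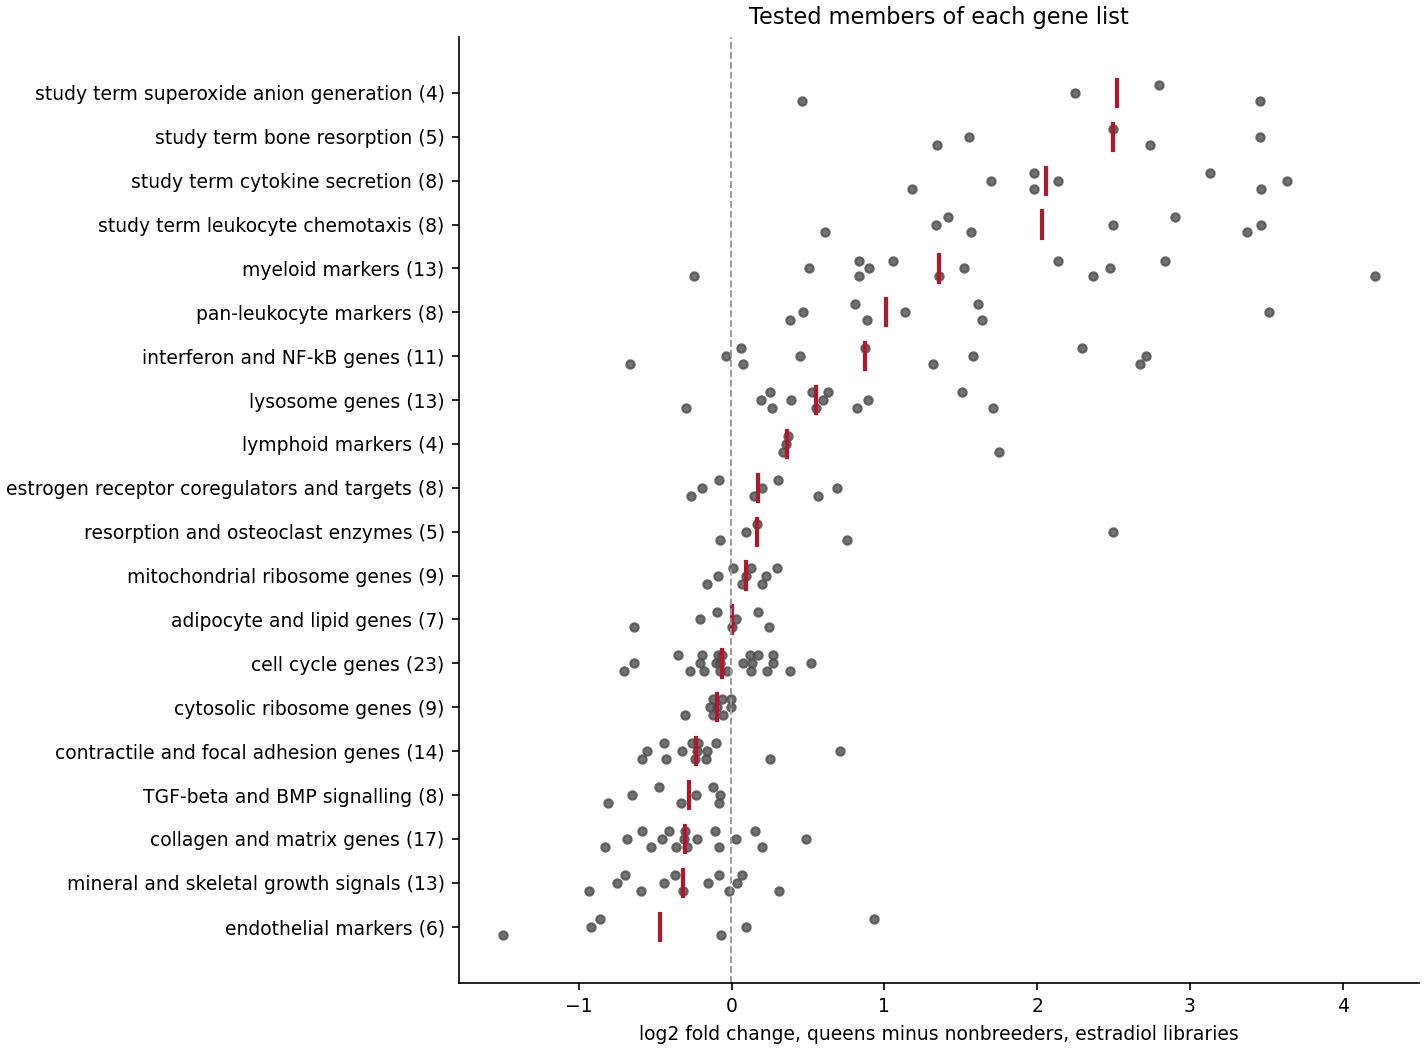
Each grey point is the log2 fold change, queens minus nonbreeders, of 1 tested gene of a list (number tested in brackets), red bars are list medians and the dashed line is the median of all tested genes, -0.0030. Leukocyte, NF-kB and lysosome lists and the study's terms lie to the right, and stromal lists near or left of 0.

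Genes of the stromal and bone-forming side lay near or below 0, and none passed an FDR of 20%. Of 17 collagen and matrix genes, 4 had a log2 fold change above 0, where 49.6% of all genes did. None had an unadjusted p under 0.05 in the estradiol libraries, where 0.57% of all genes had one and were lower in queens. The median was -0.30, which was 0.03 without MAF006 and -0.90 without LAF007. COL1A1 had a log2 fold change of -0.08 (SE 0.86), with values in single libraries as given above. Its difference in mean log2 CPM, queens minus nonbreeders, was -0.65, so the size of the COL1A1 difference is not settled. LAYN (-0.45, SE 0.38), a hyaluronan receptor, and SPON2 (-0.83, SE 0.76), a spondin of the matrix, had the smallest p of the list. Mineral and skeletal growth signals had a median of -0.32 over 13 tested genes, 3 of them above 0, which ran from -0.69 without WAF014 to -0.07 without MAF006 and was -0.04 with colony as a block. SLIT2, a secreted guidance factor, had -0.75 (SE 0.46). PHEX, a peptidase of osteoblasts and osteocytes that acts in phosphate balance, was at 2.95 CPM in MAF006, 4.67 in LAF007, 5.68 in NOF009 and 5.84 in WAF014, and between 5.44 and 11.4 in nonbreeders. LAF007 and MAF006 were below every nonbreeder, and the log2 fold change was -0.59 (SE 0.33, edgeR adjusted p = 0.983).

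All 8 tested genes of TGF-beta and BMP signalling had a log2 fold change below 0, with a median of -0.28 that was -0.0097 without MAF006. MAP3K7 and TGFBR3 had an unadjusted p under 0.05, where 0.57% of all genes had one and were lower in queens. ENG, endoglin, a TGF-beta co-receptor that also marks stromal cells, was at 3.49 CPM in WAF014, 6.89 in MAF006, 11.8 in NOF009 and 12.7 in LAF007, and between 0.984 and 28.8 in nonbreeders, with a log2 fold change of -0.23 (SE 0.70). The queens lay inside the nonbreeder range, and mean log2 CPM ran the other way, at 3.00 in queens and 2.85 in nonbreeders, so ENG has no settled direction. Contractile and focal adhesion genes had a median of -0.23, with 2 of 14 above 0, which ran from -0.74 without LAF007 to -0.06 without DVF008. Endothelial markers had -0.47, with 2 of 6 above 0, and 0.08 without DVF008. Adipocyte and lipid genes (median 0.0020 over 7), cell cycle genes (-0.06 over 23), cytosolic ribosome genes (-0.09 over 9) and mitochondrial ribosome genes (0.10 over 9) had no member with an unadjusted p under 0.05. Of 8 coregulators and targets of estrogen receptors, 5 were above 0, with a median of 0.17, or -0.10 without LAF007, and no unadjusted p under 0.05. HSD17B11, a dehydrogenase of steroids, came closest, with a log2 fold change of 0.69 (SE 0.31, unadjusted p = 0.0506), and NRIP1, MED12 and CTBP1 had -0.26, 0.20 and 0.31.

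In the vehicle libraries of the same 10 animals, edgeR's test called no gene at an FDR of 10% (0%), with 0.250 as the lowest adjusted p. Genes with an unadjusted p under 0.05 numbered 467 higher (4.23%) and 114 lower in queens (1.03%), and DESeq2's Wald test called 93. Those with such a p were 581 in total, against 552 for uniform p-values. Both comparisons use the same animals, so they are not independent. ENSFDAG00000015151 had a log2 fold change of 4.01 under vehicle (SE 0.69, adjusted p = 0.250) and CTSV 1.73 (SE 0.30, adjusted p = 0.250). The level of CTSV under vehicle was between 391 and 904 CPM in queens and between 114 and 263 in nonbreeders, again without overlap. ENSFDAG00000015372 had 3.07 under vehicle, but its queens then spread from 10.5 CPM in LAF007 to 146 in NOF009, against 0.363 to 11.2 in nonbreeders, so that LAF007 was no longer apart. CCL8 had 3.58, CTSZ 1.59, ADAM8 2.22 and CTSK 0.66. SIPA1 was at 1.56 under estradiol and 0.42 under vehicle, and H2AFJ at 2.24 and 1.13. The median over the lysosome list was 0.55 and 0.40, over the myeloid markers 1.36 and 1.38, and over the collagen and matrix genes -0.30 and -0.66, under estradiol and vehicle. The vehicle library of the nonbreeder WEF002 stood apart in ribosomal genes. RPL8 was at 2083 CPM there and between 466 and 811 in the other vehicle libraries, and RPS26 at 1120 against 211 to 468. By Pearson correlation of log2 CPM, with group means kept, the 2 libraries of an animal were least alike in LAF007 (0.875) and WEF002 (0.893). The other animals were at 0.914 to 0.990. The part of the LAF007 and WEF002 libraries in the differences between treatments was not tested.

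**Figure D4:**
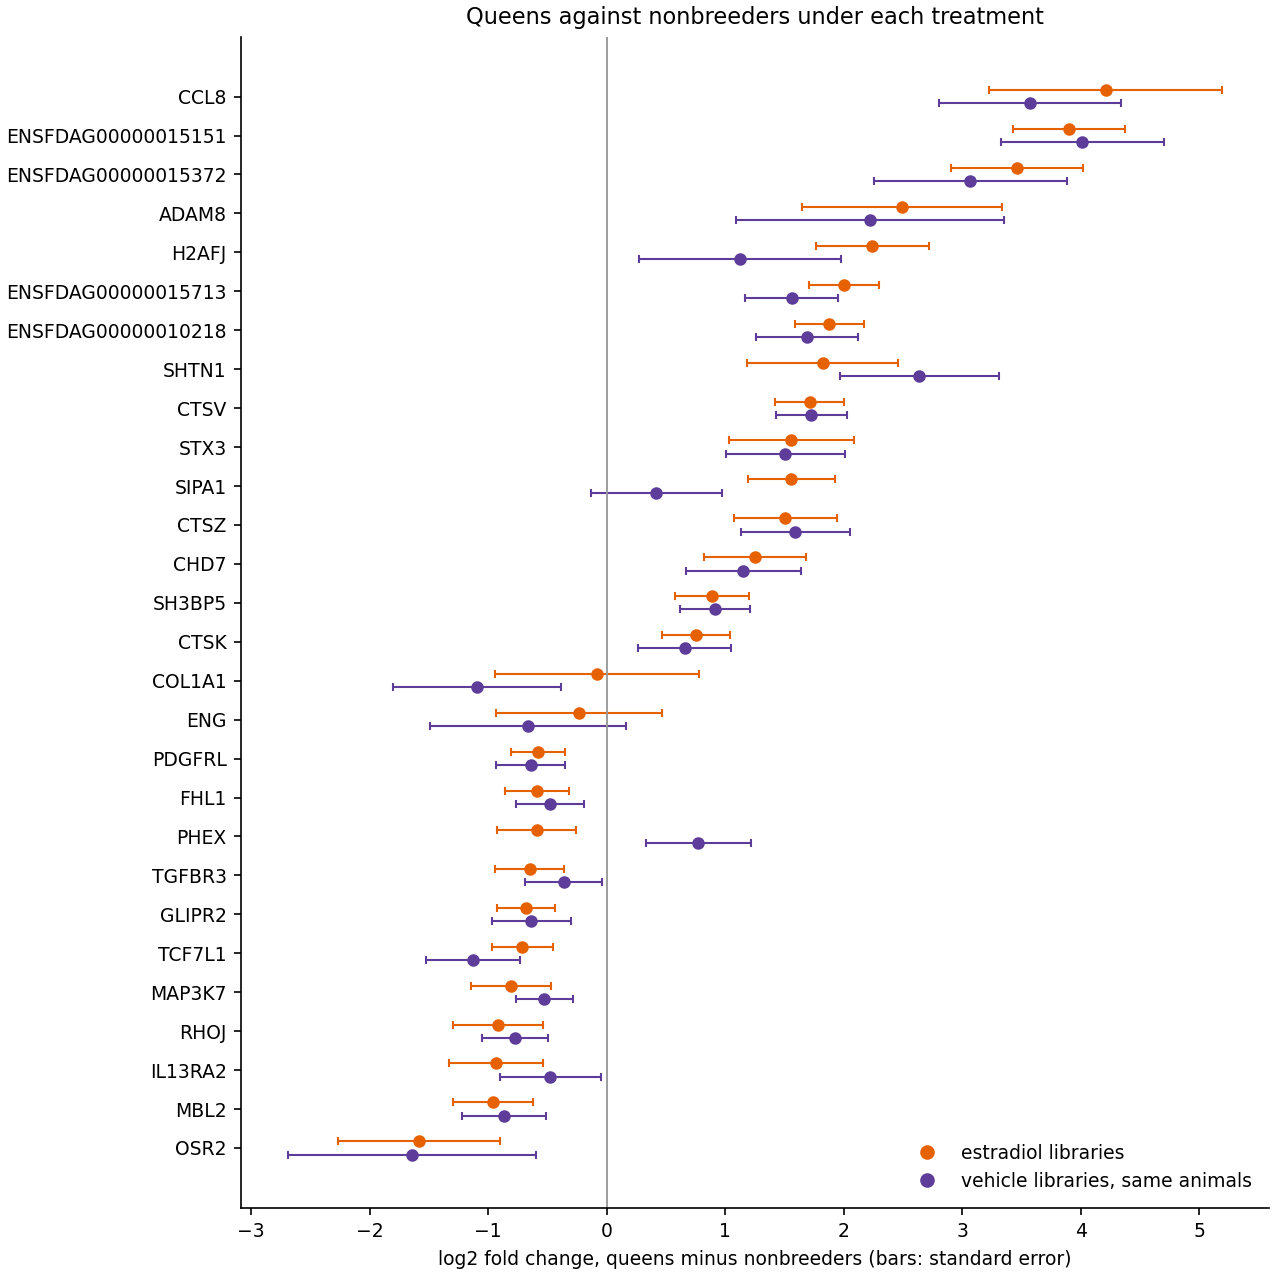
Points are log2 fold changes, queens minus nonbreeders, with standard errors, from separate fits of the estradiol (orange) and vehicle (purple) libraries of the same 10 animals. Most genes have the same sign and overlapping bars; PHEX is at -0.59 under estradiol and 0.77 under vehicle.

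Whether the queen effect differed between treatments was tested as the interaction of breeding status and treatment over the 20 libraries, with animal as a block. At an FDR of 10% there was no call (0%), edgeR's lowest adjusted p was 0.945, and 27 genes had an unadjusted p under 0.05 (0.244%). Uniform p-values would give 552. Why so few were found was not tested, and the lack of calls does not show equal effects. DESeq2 also called none, with 36 at an unadjusted p under 0.05. PHEX had the smallest p of the genes with a symbol that were lower in queens under estradiol than under vehicle. Under vehicle it was at 5.89 CPM in WAF014, 8.34 in NOF009, 8.84 in LAF007 and 14.5 in MAF006. Nonbreeders under vehicle were between 3.19 and 12.6. The estradiol level was below the vehicle level in all 4 queens, by little in WAF014, and higher in 5 of 6 nonbreeders, WAF011 being the exception. The difference of the queen effects was -1.45 on the log2 scale (SE 0.46, unadjusted p = 0.00808, edgeR adjusted p = 0.945). These levels rest on 18 to 147 reads per estradiol library. ANGPT2, an angiopoietin of endothelial cells, had a difference of -1.13 (SE 0.48) and SHTN1, a protein of neuronal polarity, -0.95 (SE 0.42), or -0.55 without MAF006. In the other direction, HDGFL2 (1.29, SE 0.64), GSTZ1 (0.58, SE 0.30), an enzyme of tyrosine breakdown, and ATP8B2 (1.12, SE 0.62), a lipid flippase, had the smallest p among genes with a symbol, each above 0.05; 14 genes without one were under 0.05 in this direction. For CTSV the difference was -0.11 (SE 0.27), for CTSK 0.16 (SE 0.29), for ADAM8 0.11 (SE 1.22) and for ENSFDAG00000015151 -0.64 (SE 0.77).

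**Figure D5:**
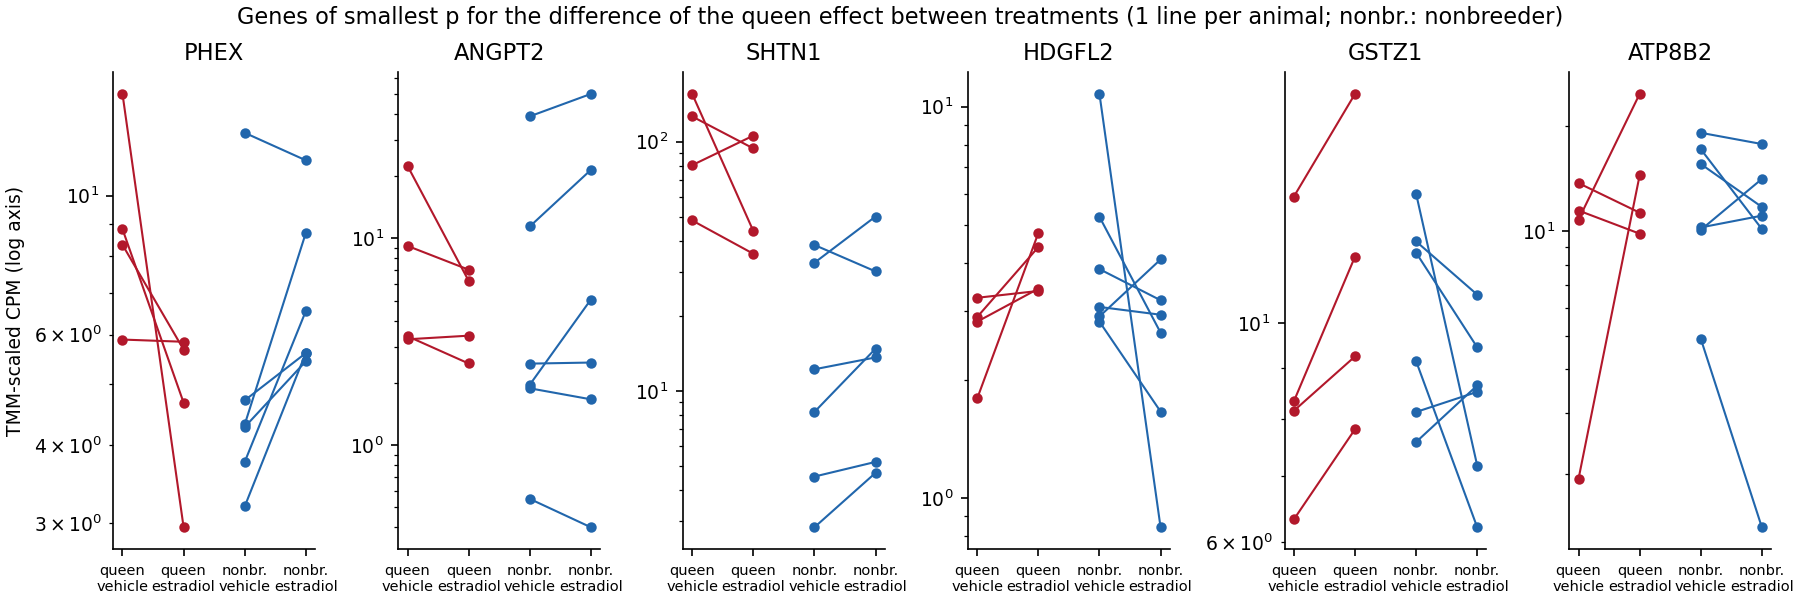
Each line is 1 animal, from its vehicle to its estradiol library, in CPM scaled by trimmed mean of M-values factors on a log axis, for queens (red) and nonbreeders (blue). PHEX is lower under estradiol along all 4 queen lines and is higher along 5 of 6 nonbreeder lines, a difference with an adjusted p of 0.945.

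The animals came from 8 natal colonies, inferred from the letters that open an animal's name, and only 2 colonies gave both a queen and a nonbreeder. Between NOF009 and NOF007, sisters by this inference, log2 CPM differed by 3.37 for ENSFDAG00000015151, 2.27 for ENSFDAG00000015372, 0.98 for CTSV, 0.88 for CTSK and 2.00 for CCL8. Between WAF014 and WAF011 the same differences were 5.08, 4.0, 2.68, 0.78 and 5.97. The queen was higher in both pairs for each of these genes, whereas for CHD7 the differences were 2.22 and -0.37. With colony as a block, edgeR's test made no call at an FDR of 10% (lowest adjusted p 0.840); this paired fit leaves 1 residual degree of freedom.

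Ages fell into 2 sets, of 4 animals up to 1006 days old and 6 of at least 1075 days, each with 2 queens. Dates of sacrifice and days in culture are not in the labels, so age cannot be told apart from a date or cohort that the sets may share. The older queens were MAF006 and NOF009, the leukocyte-rich pair, and the younger were LAF007 and WAF014. Among queens, leukocyte level and age set therefore cannot be told apart. Differences of mean log2 CPM were 4.13 in the younger and 2.89 in the older set for ENSFDAG00000015151, 2.38 and 1.10 for CTSV, 0.96 and 0.41 for CTSK, 6.47 and 4.50 for CCL8, 0.29 and 2.79 for LAPTM5 and -0.41 and -1.56 for COL1A1. With the age set as a block, edgeR's test called 147 genes at an FDR of 10%, all higher in queens (1.33%), in place of 1. The gene called without the block was among them, as were the 3 others past an FDR of 20%. Those with a symbol were TCN1, IL7R, CTSS, ARL11, CTSV, CTSZ, PARVG, CLEC4E, C3, GPR65, CCL8, ARRDC4, SIPA1 and H2AFJ. Of the lists, this fit called 5 of 13 myeloid markers, 2 of 13 lysosome genes, 1 of 8 pan-leukocyte markers and 1 of 4 lymphoid markers. It also called 3 of 5 genes under bone resorption and 3 of 4 under superoxide anion generation, and no collagen, mineral, TGF-beta or contractile gene. CTSS had a log2 fold change of 3.51 there (SE 0.61, adjusted p = 0.0485) and CTSV 1.70 (SE 0.32, adjusted p = 0.0538). The part of leukocyte content in these calls was not tested.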

How the data were processed

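Reads were trimmed by the authors (cutadapt 2.3) and aligned to DMR_v1.0 (STAR), and HTSeq counted the uniquely placed ones per Ensembl gene. The deposited values are these counts per gene, without normalization. The strand setting is not given in the sources used here, so overlapping and antisense genes, and near-identical copies, are uncertain. The members, lists and tests were chosen with earlier results of these data known. The table names 33562 genes by identifier. Symbols came from a supplement of the study, of which only 1594 rows were used here. From these rows 1138 symbols were usable, and 9931 of the 11047 tested genes had no usable symbol among them. Rankings of genes with a symbol therefore cover only 1116 tested genes.

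A gene was tested where 25% or more of the 47 libraries reached a CPM of 2; the study's filter is per gene length, and no lengths were used here. Two-sided tests were from edgeR 4.0.16 (quasi-likelihood, trimmed mean of M-values) in R 4.3.3, with Benjamini-Hochberg adjustment over all tested genes and FDR thresholds of 10% and 20%. Levels are CPM, or log2 CPM with a prior count of 2. The scripts were tested on simulated counts. Named were members of 16 lists and 4 study terms, described by those of smallest p, CTSK, ADAM8, COL1A1, PHEX and ENG, the 10 genes with a symbol of smallest p in each direction, 3 in each direction for the treatment difference and 2 identifiers without a symbol in each direction; the genes past an FDR of 20% and LAPTM5, NRIP1, MED12, CTBP1, ENSFDAG00000011628 and ENSFDAG00000018795 were added after their values were seen. Alternatives were DESeq2 1.42.0, its size factors, no filter, filterByExpr, limma 3.58.1 voom on the 26 long bone libraries, 1 fit of 20 libraries, blocks for natal colony and age set, helpers only, CPM without factors, and leaving out each animal. Plots used matplotlib 3.10.9. No library was a copy of another, with a lowest chi-squared/df of 24.1 over pairs within a group and 3.47 over the 2 libraries of an animal.

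Natal colony stands for littermates and date of sacrifice in the study's methods. After removal of group means, log2 CPM correlated at 0.656 and 0.209 across genes between the sisters of colonies NO and WA, and at a median of -0.101 between a queen and a nonbreeder of different colonies. Estradiol and vehicle libraries of an animal correlated at 0.143 to 0.889. Each animal gave 1 long bone estradiol culture, so p-values of the main test measure the spread between animals, taken as independent. The main test ignores the pairing of the sisters in colonies NO and WA. Days in culture and the proportion of reads in genes, covariates of the study, were not used here.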

Additional observations from a re-analysis of the deposited data

Results flagged for a closer look

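Of 62 groups of values examined with Dixon's ratio, 4 had a library far from the others, and about 1 in 20 groups would by chance. The total of WAF011, 14740985 counts, was far above the next nonbreeder, 8784879. TCF7L1 was low in MAF006, at 3.81 log2 CPM against 4.04 to 4.08 in the other queens. PDGFRL was high in G4F020, the solitaire, at 6.50 log2 CPM against 5.86 to 5.99 in the other nonbreeders. H2AFJ was low in WEF002, at -0.32 log2 CPM against 0.97 to 1.71, and rests there on 4 reads.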

How the results depend on the processing

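At an FDR of 10%, the count for estradiol, 1, was the same with DESeq2's size factors, without a filter and with filterByExpr. It was 53 with DESeq2's test, 59 with voom, 6 with the 20 libraries in 1 fit, 147 with the age set as a block, 0 with helpers only, 0 with the replicate block of natal colony, and 0 to 1 without each animal. At an FDR of 20%, the count of 4 became 81, 219, 11, 266, 0, 0 and 0 to 18 in that order, and 2 without a filter. It was 18 without NOF007, 0 without NOF009, DVF008, G4F020 or WAF011 and 1 without each other animal. The voom fit included natal colony and a correlation between libraries of an animal. Its 59 calls at an FDR of 10% did not hold ENSFDAG00000015151, and held 2 of the 4 genes past an FDR of 20%. The fit of 20 libraries had no term for animal. It took the 2 libraries of an animal as independent, so its calls overstate the evidence. The vehicle count of 0 became 3 without a filter, 93 with DESeq2, 193 with the age block and 665 with the colony block, a paired fit with 1 residual degree of freedom, and stayed 0 without each animal. The count for the treatment difference was 0 in every alternative run. Of 36 values of named genes, 2 changed sign: ENG was 0.33 with voom and between -0.47 and 0.41 without each animal, and COL1A1 between -1.28 and 0.31. Of 20 list medians, 8 changed sign by 0.1 or more in some alternative, among them those of lymphoid, endothelial, and collagen and matrix genes. The cause was not tested. Low reads limit ENSFDAG00000015151 and H2AFJ in nonbreeders. With CPM from library totals alone, the difference in mean log2 CPM was 0.75 for CTSK and 2.57 for ADAM8.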
